A study of Rattus norvegicus with 6 samples.

Results

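The DEAD and DEAH box RNA helicases were examined in sensory neurons of hypertensive rats after ablation of the perirenal fat. They were taken as every protein-coding gene of the count table named Ddx or Dhx followed by a digit, which gave 52 of 25689 genes, 36 named Ddx and 16 named Dhx. Of these, 50 passed the filter on low counts and were tested among 14919 genes. Ddx4 and Ddx43, known as germ cell helicases, had at most 2 counts in any sample and were not tested. All 6 samples held neurons from dorsal root ganglia (DRGs) at levels L1-L2 in wild-type Spontaneously Hypertensive Rats (SHR), a strain with inherited high blood pressure, with an age of 6 to 8 weeks in the labels, while the study's methods give an older age at purchase. PRATA (surgical ablation of the perirenal adipose tissue, 4 weeks earlier) was compared with a sham operation, with 3 samples per group from 3 rats each. The question was which genes differ after PRATA in neurons of the ganglia that supply this fat, and the neurons were not selected for fibres that reached it. Neurons were enriched after enzymatic digestion by the faster attachment of glia to the dish and were kept in culture for some hours, so the samples hold other cells as well. No animal without hypertension was among these samples.

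DEAD and DEAH box helicases use ATP to open short RNA duplexes or to strip proteins from RNA, and each name comes from the amino acids of a conserved motif. Many work in the nucleolus, where ribosomal RNA (rRNA) is transcribed, cut and folded into ribosomal subunits. Others drive the steps of the spliceosome, carry mRNA out of the nucleus or start its translation. RIG-I (Ddx58) and LGP2 (Dhx58) bind viral double-stranded RNA in a pathway that leads to interferon genes. In neurons, ribosome production is known to follow cell size and growth. The members were placed, by 1 known role each, into 16 nucleolar, 12 splicing, 11 export and cytoplasmic mRNA, 2 RNA sensing and 11 other helicases. Some are known for more than 1 role, so the 2 RNA sensing genes need not be the only sensors.

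The helicases took between 0.341% and 0.381% of all counts in the PRATA samples and between 0.420% and 0.496% in the sham samples, out of 5892967 to 15226952 counts per sample. At these depths 3 counts, taken as a floor, correspond to 0.197 to 0.509 CPM (counts scaled by library size with edgeR's TMM factors), and this covers counting error only. PRATA replicate 3 and sham replicate 1 stood apart from the other 4 samples when all genes were clustered, and sham replicate 2 was the shallowest library. The summed level of 20 sensory neuron markers was 22376, 15421 and 23084 CPM after PRATA and 10670, 16657 and 13327 CPM after sham, and none of these markers was at 0 in all samples. All 20 had a log2 fold change above 0, 4 of them at an unadjusted p under 0.05, with a median of 0.45. Over all genes tested, 8.19% were higher and 10.1% lower at that p, and 48.0% were below 0. Markers of satellite glia, the cells that wrap these neurons, summed to 3519 to 6765 CPM after PRATA and 4678 to 9154 CPM after sham. Most of this sum was Apoe, at 2779 to 5229 CPM after PRATA and 3707 to 7473 CPM after sham. All 10 satellite glia markers had a log2 fold change below 0 (median -0.52). They ranged from -1.63 in Sox10, the only 1 at an unadjusted p under 0.05, to -0.0023 in Cadm2. Fibroblast markers summed to 599 to 2735 CPM after PRATA and 1557 to 2947 CPM after sham, and 8 of the 9 markers tested had a log2 fold change below 0, 2 of them at an unadjusted p under 0.05. Schwann cell markers summed to 963 to 1647 and 786 to 999 CPM, and 9 of 10 lay above 0, with 2 at an unadjusted p under 0.05. Macrophage markers summed to 74.6 to 219 CPM after PRATA and 59.9 to 142 CPM after sham. Of these 10 markers, 8 lay above 0 (median 0.71), with 1 higher at an unadjusted p under 0.05. None of the 8 T cell and B cell markers passed the filter. Endothelial markers summed to 73.2 to 148 CPM after PRATA and 29.7 to 174 CPM after sham. Of the 9 tested, 8 lay above 0 (median 0.32), with 1 higher at that p. The sums of all these marker lists overlapped between the groups.

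Most nucleolar helicases were lower after PRATA at an unadjusted p under 0.05, and few of the other helicases were. Of the 50 helicases tested, 38 had a log2 fold change (PRATA over sham) below 0, against 48.0% of all genes tested. At an unadjusted p under 0.05, 15 helicases were lower, where the share over all genes was 10.1%, and 0 were higher, where it was 8.19%. Of these 15, 11 were among the 16 nucleolar genes and 4 among the 34 other helicases tested. The latter share at that p is close to that of all genes. With a log2 fold change under -1 as well, 4 helicases were lower, beside 3.23% of all genes, and 0 were higher, beside 1.17%. By other measures the 34 other helicases also leaned lower, with 23 below 0. In 10 of these 34 every PRATA sample was below every sham sample, against 11.2% of all genes. In 0 of them every PRATA sample was above, against 11.6%. The median log2 fold change was -0.79 for the nucleolar helicases, -0.22 for splicing, -0.13 for export and cytoplasmic mRNA, 0.47 for the 2 RNA sensors and 0.01 for the others, while the median over all genes was 0.02. After Benjamini-Hochberg adjustment over all genes, edgeR's quasi-likelihood test gave 0 genes with an adjusted p under 0.05. The 15 helicases had adjusted p-values between 0.156 and 0.233, and 2734 genes had an unadjusted p under 0.05. By DESeq2, 728 genes passed at an adjusted p under 0.05, and 9 of them were helicases, 7 nucleolar. In bulk RNA, fewer cells of a type and less RNA per cell cannot be told apart.

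**Figure D1:**
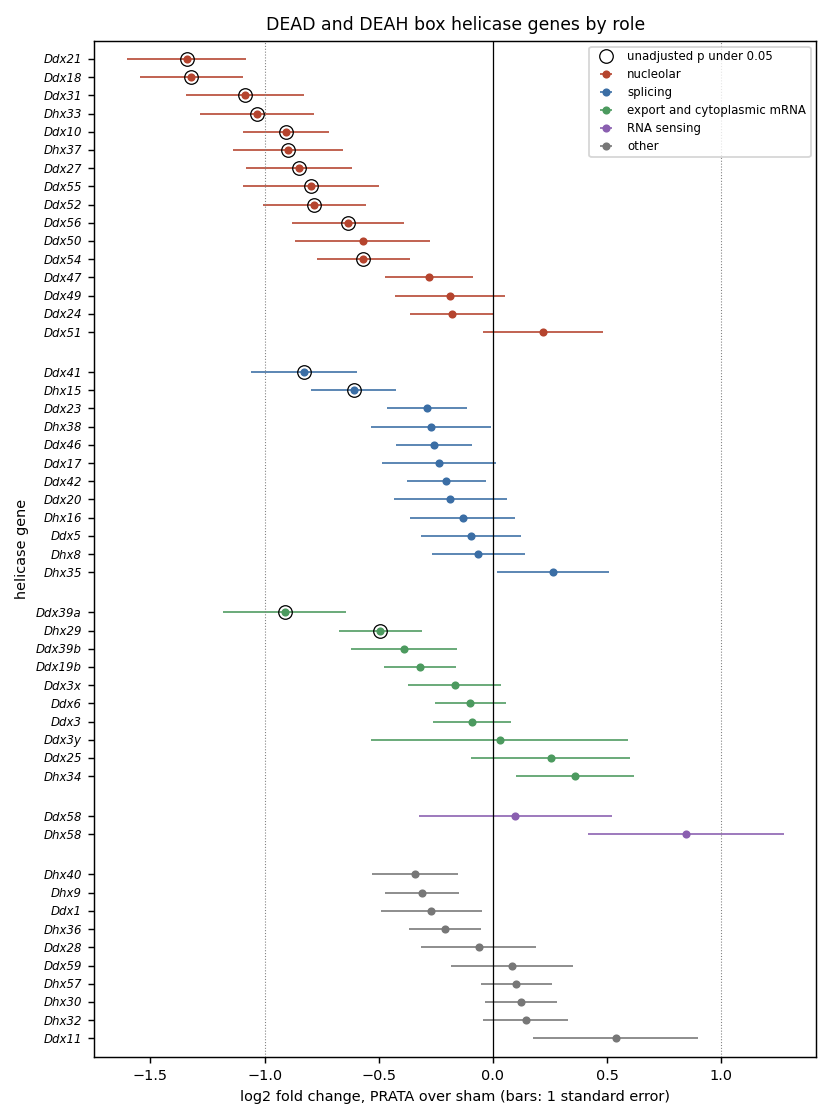
Log2 fold change of each helicase tested (x axis, PRATA over sham, n = 3 per group, bars are 1 standard error), grouped by known role on the y axis, with dotted lines at 1 and -1. Circled genes had an unadjusted p under 0.05, and 11 of these 15 are nucleolar.

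Ddx21, which acts in rRNA transcription and processing, was measured at 152, 137 and 128 CPM after PRATA and at 381, 232 and 446 CPM after sham. Each PRATA sample lay below each sham sample, and the sham samples spread far more than the PRATA samples. The log2 fold change was -1.34 (SE 0.26), the most negative among the helicases, with an adjusted p of 0.156 in edgeR's quasi-likelihood test. Ddx18, needed for the large ribosomal subunit, was at 22.7, 19.998 and 21.3 CPM after PRATA and 48.6, 41.4 and 69.6 CPM after sham. Its lowest sham sample was 1.82 times its highest PRATA sample, and its log2 fold change was -1.32 (SE 0.22, adjusted p = 0.156 in edgeR). RefSeq lists 9 pseudogenes of Ddx21, and 2 pseudogenes and 1 further copy of Ddx18, and reads of such copies could be counted here, so both levels are uncertain to that extent. Ddx31, also a large subunit factor, was at 12.8, 13.2 and 14.6 CPM after PRATA and 35.8, 18.6 and 31.6 CPM after sham. The groups did not overlap, and the log2 fold change was -1.09 (SE 0.26, adjusted p = 0.156 in edgeR). Dhx33, a helicase of rRNA transcription, was at 10.8, 11.2 and 16.4 CPM after PRATA and 30.1, 19.7 and 29.1 CPM after sham. Here too every PRATA sample was below every sham sample, with a log2 fold change of -1.03 (SE 0.25, adjusted p = 0.157 in edgeR).

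These 4 genes were the helicases past both thresholds, and the sequences around their start sites are shown for that reason, from 250 bases before to 50 bases after the start (RefSeq, build GRCr8, reference strain and not SHR). Ddx21 lies at chr20:31097189-31097488 on the minus strand, Ddx18 at chr13:35295923-35296222 on the minus strand, Ddx31 at chr3:32570746-32571045 on the plus strand and Dhx33 at chr10:56223094-56223393 on the minus strand. Capitals mark CCGGAAG, the core bound by ETS factors, in Ddx21 and Ddx31 (there also as its reverse complement, CTTCCGG), and CACGTG, the E-box bound by MYC and related factors, in Ddx18 and Dhx33.
Ddx21: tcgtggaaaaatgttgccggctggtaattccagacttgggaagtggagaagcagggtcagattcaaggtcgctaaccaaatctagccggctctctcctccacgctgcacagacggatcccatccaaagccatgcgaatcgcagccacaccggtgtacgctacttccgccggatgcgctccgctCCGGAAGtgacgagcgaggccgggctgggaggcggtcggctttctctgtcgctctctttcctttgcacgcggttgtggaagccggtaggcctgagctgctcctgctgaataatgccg
Ddx18: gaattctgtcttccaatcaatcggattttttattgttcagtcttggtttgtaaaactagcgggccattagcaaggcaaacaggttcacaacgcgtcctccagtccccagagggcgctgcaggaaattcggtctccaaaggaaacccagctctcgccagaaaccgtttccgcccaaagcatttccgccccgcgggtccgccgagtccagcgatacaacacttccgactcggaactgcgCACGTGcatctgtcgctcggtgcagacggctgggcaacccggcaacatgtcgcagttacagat
Ddx31: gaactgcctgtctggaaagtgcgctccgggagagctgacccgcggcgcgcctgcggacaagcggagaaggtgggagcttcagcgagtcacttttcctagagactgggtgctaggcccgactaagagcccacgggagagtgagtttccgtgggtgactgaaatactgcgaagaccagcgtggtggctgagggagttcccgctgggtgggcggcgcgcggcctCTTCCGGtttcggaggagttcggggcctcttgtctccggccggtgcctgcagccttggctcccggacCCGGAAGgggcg
Dhx33: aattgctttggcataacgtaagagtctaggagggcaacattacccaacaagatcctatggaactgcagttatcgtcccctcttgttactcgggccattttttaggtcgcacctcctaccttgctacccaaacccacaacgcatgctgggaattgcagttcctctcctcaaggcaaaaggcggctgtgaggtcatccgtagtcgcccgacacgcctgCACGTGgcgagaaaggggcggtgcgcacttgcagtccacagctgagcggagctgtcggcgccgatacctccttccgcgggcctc

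The Ddx18 window held CACGTG with its first base at -13 and the Dhx33 window at -34, counted from the start site, with no CCGGAAG on either strand of these windows. The Ddx21 window held CCGGAAG at -67, and Ddx31 held it at -29, on the opposite strand, and at 39, with no CACGTG in either. CACGTG (its own reverse complement) was found in 6.42% of all 33469 RefSeq windows of this length and in 7 of the 44 helicases with a single window, 2 of them among 13 nucleolar ones. CCGGAAG, searched on both strands and chosen after the windows had been read, was found in 8.75% of all windows and in 10.7% of protein-coding ones. It was present in 18 of the 44 helicases, 9 of 13 nucleolar, 2 of 11 splicing, 3 of 9 export and cytoplasmic and 4 of 11 other ones. The Ddx18 and Dhx33 windows lacked it, while the window of Ddx50 (chr20:31133603-31133902, minus strand), a gene with a smaller difference, held it at -13. The repeat bound by interferon regulatory factors (GAAA, any 2 bases, GAAA) was in 3.92% of all windows and in 1 helicase, Ddx49, while Ddx58 and Dhx58 have no window in the table used. A match is a description of the letters alone.

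The remaining nucleolar helicases at an unadjusted p under 0.05 had smaller differences. Ddx10, an assembly factor of the small ribosomal subunit, was at 50.7, 46.3 and 59.5 CPM after PRATA and 93.2, 83.8 and 116 CPM after sham. These groups were well separated, with the lowest sham sample 1.41 times the highest PRATA sample and a log2 fold change of -0.91 (SE 0.19, adjusted p = 0.156 in edgeR). Dhx37, which acts late in small subunit assembly, was at 25.8, 25.8 and 34.8 CPM against 55.8, 38.9 and 66.2 CPM, also without overlap (log2 fold change -0.90, SE 0.24, adjusted p = 0.168 in edgeR). Ddx27, of large subunit rRNA processing, was at 57.3, 55.6 and 69.2 CPM after PRATA and 116, 76.2 and 136 CPM after sham, and sham replicate 2 lay close to PRATA replicate 3. Its log2 fold change was -0.85 (SE 0.23). Ddx52, of small subunit rRNA processing, was at 12.005, 8.84 and 12.6 CPM against 22.2, 16.1 and 19.0 CPM, a log2 difference of -0.78 (SE 0.23) without overlap. In Ddx54 (62.0, 62.9 and 63.7 CPM against 107, 67.4 and 105 CPM) and Ddx56 (12.8, 17.8 and 18.4 CPM against 22.5, 20.8 and 33.0 CPM), both of the large subunit, the groups were also apart, but sham replicate 2 lay near the PRATA samples. Their log2 fold changes were -0.57 (SE 0.20) and -0.63 (SE 0.24). Ddx55, another large subunit factor, was at 9.94, 8.53 and 7.99 CPM after PRATA and 14.6, 9.83 and 21.3 CPM after sham. It was the only one of the 11 whose groups overlapped, at sham replicate 2, and its log2 fold change was -0.80 (SE 0.30, adjusted p = 0.228 in edgeR).

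The other 5 nucleolar helicases did not pass the unadjusted threshold, and their groups overlapped. Ddx50, the close paralog of Ddx21 on the same chromosome, was at 46.6, 48.3 and 34.6 CPM after PRATA and 52.7, 44.6 and 94.6 CPM after sham. Sham replicate 3 stood well above the other samples, and the log2 fold change was -0.57 (SE 0.30, unadjusted p = 0.0902, adjusted p = 0.337 in edgeR). The ratio of Ddx21 to Ddx50 counts, which reads the pair within each library, was 3.26, 2.85 and 3.72 after PRATA and 7.23, 5.19 and 4.71 after sham. All 3 PRATA ratios were below the sham ratios. Ddx24, of large subunit assembly, was at 149, 134 and 113 CPM after PRATA and 149, 129 and 171 CPM after sham, a log2 difference of -0.18 with a 95% interval from -0.60 to 0.24. Ddx47 and Ddx49, both of small subunit rRNA processing, had log2 fold changes of -0.28 (SE 0.19) and -0.19 (SE 0.24). Ddx51, which processes large subunit rRNA, was at 16.3, 13.7 and 14.2 CPM after PRATA and 13.1, 8.43 and 16.2 CPM after sham. It was the only nucleolar helicase with a value above 0, at 0.22 and a 95% interval from -0.38 to 0.82.

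**Figure D2:**
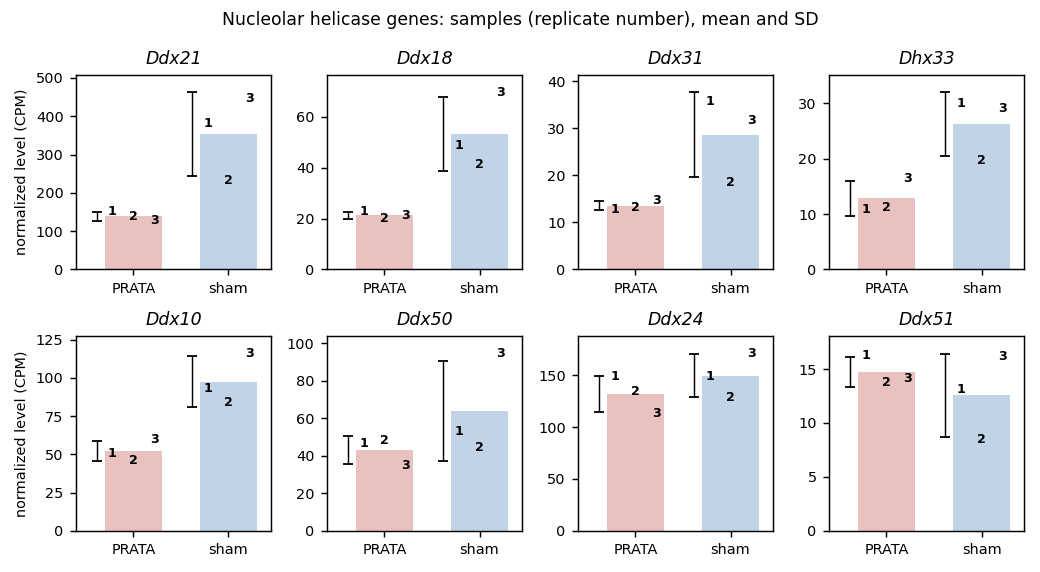
Normalized level (y axis, CPM) of 8 nucleolar helicases in PRATA and sham (x axis), where digits are the replicates, bars the mean and the brackets 1 SD (n = 3). Ddx21, Ddx18, Ddx31, Dhx33 and Ddx10 have every PRATA sample below every sham sample, Ddx50, Ddx24 and Ddx51 overlap, and replicate 2 is the lowest sham sample in all 8.

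Added over the 16 genes, the nucleolar helicases reached 694, 661 and 672 CPM after PRATA and 1220, 858 and 1427 CPM after sham. The PRATA samples were close together and below all sham samples, and the ratio of the group means was 1.73. Ddx21 does not account for it alone, since without this gene the sums were 543, 523 and 543 CPM against 839, 627 and 981 CPM, a ratio of 1.52. The groups did not overlap for 10 of the 16 genes, all 10 lower after PRATA, where 11.2% of all genes were lower in this way and 11.6% higher. Over all 50 helicases tested the same held for 20, and for none in the other direction. Sham replicate 2 was the lowest sham sample in all 16 nucleolar genes, so the lower edge of the sham group rests on the shallowest library. This library also had the highest sensory neuron sum of the sham samples (16657 CPM). Its satellite glia and fibroblast sums were the lowest of them (4678 and 1557 CPM). The part of depth and of cell make-up was not tested. Without sham replicate 2 the median log2 fold change was -0.94, and 13 nucleolar helicases were lower at an unadjusted p under 0.05. In that fit 11 helicases of all roles, 8 of them nucleolar, had an adjusted p under 0.05 in edgeR among 721 genes. Without PRATA replicate 3 and sham replicate 1, the libraries that cluster together, the median was -0.80 and 9 nucleolar helicases were lower at that p.

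To set the nucleolar helicases against the rest of the family within each sample, their mean log2 CPM was taken minus that of the 34 other helicases tested. This gap was -0.60, -0.56 and -0.46 in the PRATA samples and 0.10, -0.31 and 0.25 in the sham samples. The PRATA samples were all below the sham samples, with a difference of -0.56 between the means. No p-value is attached, because the roles were assigned with earlier results known. All 10 satellite glia markers and 8 of 9 fibroblast markers also had log2 fold changes below 0, beside 48.0% of all genes. The satellite glia sum, most of it Apoe, was 4077, 6765 and 3519 CPM after PRATA and 8115, 4678 and 9154 CPM after sham. The fibroblast sum was 599, 1167 and 2735 CPM after PRATA and 2947, 1557 and 1902 CPM after sham. Their part in the difference of the nucleolar helicases was not tested.

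**Figure D3:**
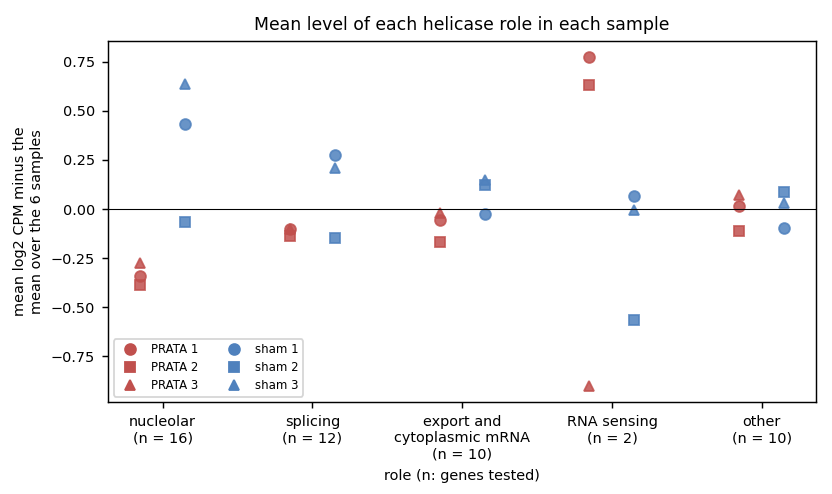
Mean log2 CPM of each helicase role in each sample, minus its mean over the 6 samples (y axis), by role with the number of genes tested (x axis), with red for PRATA, blue for sham and a symbol for each replicate. Groups are apart for the nucleolar role, where the PRATA samples lie between -0.39 and -0.27, and overlap for the others, and PRATA replicate 3 is far below the other PRATA samples in RNA sensing.

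Splicing helicases differed less than the nucleolar ones: 11 of 12 had a log2 fold change below 0, and 2 were lower at an unadjusted p under 0.05. Over all genes these shares were 48.0% and 10.1%, so with 12 genes the count of 2 is little guide. Their mean log2 CPM was 5.937, 5.8995 and 5.934 after PRATA and 6.31, 5.89 and 6.25 after sham, and sham replicate 2 lay below the PRATA samples. Ddx41, of the catalytic step, was at 27.4, 35.1 and 32.7 CPM after PRATA and 67.8, 39.5 and 61.1 CPM after sham. The groups did not overlap, with a log2 fold change of -0.83 (SE 0.23, adjusted p = 0.171 in edgeR), and RefSeq lists a pseudogene and a further copy that could share its reads. Dhx15, which takes the used spliceosome apart and also acts in ribosome assembly, was at 124, 119 and 126 CPM after PRATA and 209, 148 and 208 CPM after sham. It was lower in each PRATA sample than in each sham sample (log2 fold change -0.61, SE 0.19, adjusted p = 0.182 in edgeR). Counting Dhx15 as nucleolar left the nucleolar median at -0.78.

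Among the other splicing helicases, Ddx23 of the U5 particle was at 74.9, 82.8 and 81.7 CPM against 87.3, 87.6 and 117 CPM, with a log2 fold change of -0.29 (SE 0.18). Ddx46, which helps the U2 particle bind the branch site, was at 103, 107 and 92.4 CPM against 117, 107 and 137 CPM, or -0.26 (SE 0.17). The groups were apart in both, by little in Ddx46, where the lowest sham sample was 1.002 times the highest PRATA sample, and neither passed the unadjusted threshold. Ddx42, also of the U2 particle, was at -0.20 (SE 0.17), and Dhx35, a spliceosome component, was the only splicing helicase above 0, at 0.26 (SE 0.25). Ddx5, a co-factor of splicing and transcription, was at 704, 682 and 562 CPM after PRATA and 822, 574 and 687 CPM after sham. Samples of both groups were mixed in order, and the log2 fold change of -0.10 had a 95% interval from -0.60 to 0.41. Its paralog Ddx17 was at 207, 225 and 139 CPM and 218, 177 and 277 CPM (log2 fold change -0.24, SE 0.25), and the ratio of Ddx17 to Ddx5 counts overlapped between the groups (0.246 to 0.330 after PRATA, 0.265 to 0.404 after sham). The 4 remaining splicing helicases, Dhx38, Ddx20, Dhx16 and Dhx8, lay between -0.27 and -0.06, and their groups overlapped.

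Of the export and cytoplasmic mRNA helicases, 10 were tested, 7 had a log2 fold change below 0, and 2 were lower at an unadjusted p under 0.05. The shares over all genes were 48.0% and 10.1%, so with 10 genes the count of 2 is little guide. Ddx39a, an mRNA export helicase, was at 16.1, 19.7 and 21.4 CPM after PRATA and 35.4, 23.9 and 48.5 CPM after sham. The groups did not overlap, and the log2 fold change was -0.91 (SE 0.27, adjusted p = 0.175 in edgeR). Ddx39b, its paralog in the TREX export complex, was at 116, 146 and 117 CPM against 201, 116 and 180 CPM. Here sham replicate 2 was at the level of the PRATA samples, and the log2 fold change was -0.39 (SE 0.23, unadjusted p = 0.131 in edgeR). The ratio of Ddx39a to Ddx39b counts was 0.139, 0.135 and 0.183 after PRATA and 0.176, 0.206 and 0.270 after sham, with a small overlap. A difference between the paralogs was therefore not shown.

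Dhx29, which helps ribosomes start on structured mRNA, was at 39.5, 34.7 and 48.7 CPM after PRATA and 54.6, 56.3 and 62.2 CPM after sham. It was lower in all PRATA samples, by a log2 value of -0.49 (SE 0.18, adjusted p = 0.225 in edgeR), and unlike the nucleolar genes its lowest sham sample was replicate 1. Ddx19b, which releases mRNA at the nuclear pore, was at 68.2, 79.7 and 71.9 CPM against 85.5, 87.7 and 101 CPM (log2 fold change -0.32, SE 0.16, unadjusted p = 0.0749 in edgeR). Its groups were apart, but it did not pass the threshold, and Ddx19a was not analysed here. Ddx3x, a translation factor, was at 476, 494 and 444 CPM after PRATA and 630, 450 and 507 CPM after sham, a log2 difference of -0.17 with a 95% interval from -0.64 to 0.30. Ddx3 and the Y-linked Ddx3y are close relatives whose reads could be exchanged with those of Ddx3x. Ddx3y was at 1.51 to 4.26 CPM after PRATA and 1.80 to 5.62 CPM after sham, and its log2 fold change of 0.03 (SE 0.56) has no direction that can be read. Dhx34, of nonsense-mediated decay, was at 8.13, 9.88 and 9.25 CPM against 5.80, 9.21 and 6.42 CPM (0.36, SE 0.26), and Ddx6, a repressor of translation, was at 137 to 156 CPM against 149 to 171 CPM (-0.10, SE 0.16).

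The RNA sensors split the PRATA samples rather than the groups. Dhx58 (LGP2) was at 25.6, 19.1 and 6.801 CPM after PRATA and 10.6, 8.43 and 9.35 CPM after sham. PRATA replicates 1 and 2 were above all sham samples, and PRATA replicate 3 was below all of them. The log2 fold change was 0.84 (SE 0.43, unadjusted p = 0.0843, adjusted p = 0.329 in edgeR). Ddx58 (RIG-I) was at 28.5, 31.4 and 10.4 CPM after PRATA and 25.5, 13.4 and 26.3 CPM after sham, with the same sample lowest, and its log2 fold change of 0.10 had a 95% interval from -0.87 to 1.07. Without PRATA replicate 3 the log2 fold change of Dhx58 was 1.23 and that of Ddx58 0.46, and Dhx58 then passed the unadjusted threshold. With PRATA replicate 1 left out instead, they were 0.44 and -0.08. In the sum of the nucleolar helicases PRATA replicate 3 lay with the other PRATA samples. In single nucleolar genes its place varied. It was above PRATA replicates 1 and 2 in Dhx33 (16.4 CPM against 10.8 and 11.2 CPM) and below them in Ddx21 (128 CPM against 152 and 137 CPM).

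Most of the sensing and interferon genes read beside the RNA sensors had the same order of samples. This list of genes was chosen with earlier results of these data known. Of 19 sensing and interferon genes tested, 18 had a log2 fold change above 0, with a median of 0.77. At an unadjusted p under 0.05, 10 were higher, beside 8.19% of all genes. In 17 of the 19 PRATA replicates 1 and 2 were both above every sham sample, and in 18 PRATA replicate 3 was the lowest PRATA sample. It was above all sham samples in 1 gene, Stat2, a signal carrier of the interferon receptor (93.6, 89.6 and 64.6 CPM against 49.5, 45.9 and 58.9 CPM). The 6 past both thresholds were interferon-induced, with log2 fold changes of 1.93 in Ifit1, 1.83 in Ifit3, 1.56 in Irf7, 1.38 in Mx1, 1.34 in Ifit2 and 1.06 in Mx2, and their groups overlapped through PRATA replicate 3. Ifit1, which binds foreign RNA, was at 132, 99.8 and 19.1 CPM after PRATA and 28.7, 13.4 and 22.9 CPM after sham. The values nearest 0 in this list were in genes of RNA sensor signalling. They were -0.17 (SE 0.19) in Mavs, 0.14 (SE 0.34) in Trim25, 0.17 (SE 0.22) in Irf3 and 0.24 (SE 0.21) in Tbk1. In Mavs PRATA replicate 3 was the highest PRATA sample (14.3, 15.9 and 17.1 CPM). The count of 10 was 15 without PRATA replicate 3 and 1 without PRATA replicate 1. Stress and injury genes, a list with heat shock and immediate early genes, summed to 4557, 5981 and 2398 CPM after PRATA and 3659, 2579 and 2203 CPM after sham. In this sum PRATA replicates 1 and 2 were above all sham samples and PRATA replicate 3 was within their range. In 2 genes every PRATA sample was above every sham sample (11.6% of all genes), and in 0 below (11.2% of all genes). These were Fos (379, 474 and 297 CPM against 217, 96.3 and 77.5 CPM) and Dnajb1 (221, 341 and 162 CPM against 133, 100 and 75.9 CPM). Of the 9 tested, 4 were higher and 1 was lower at an unadjusted p under 0.05, with a median log2 fold change of 0.89. Macrophage marker sums were 74.6, 219 and 177 CPM after PRATA and 142, 74.8 and 59.9 CPM after sham. The part of stress and of macrophages in the values of the RNA sensors and their partners was not tested.

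**Figure D4:**
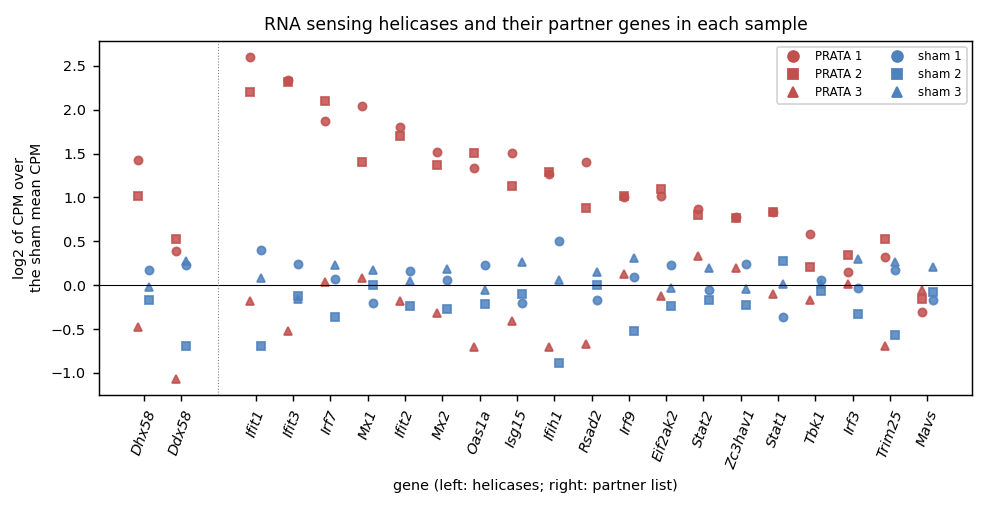
Level of the RNA sensing helicases and of 19 partner genes in each sample, as log2 of CPM over the sham mean (y axis), by gene (x axis), with red for PRATA, blue for sham and a symbol for each replicate. PRATA replicates 1 and 2 are both above every sham sample in 17 of the 19 partner genes, and PRATA replicate 3 is above all sham samples in 1.

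None of the 10 other helicases tested passed the unadjusted threshold, and 5 had a log2 fold change below 0 and 5 above. Dhx9, which unwinds duplex RNA and R-loops, was at 104, 93.9 and 88.5 CPM after PRATA and 107, 131 and 117 CPM after sham. The groups were apart by a small gap, and the log2 fold change was -0.31 (SE 0.16, unadjusted p = 0.0884 in edgeR). Dhx36, which opens G-quadruplexes, was at 88.4, 87.2 and 71.8 CPM against 96.1, 97.7 and 92.3 CPM (-0.21, SE 0.16), and Dhx40 was at 37.0, 32.8 and 36.5 CPM against 37.9, 42.0 and 54.7 CPM (-0.34, SE 0.19), both also without overlap. Ddx1, of the tRNA ligase complex, was at -0.27 (SE 0.22), and Dhx30, of mitochondrial RNA, at 0.12 (SE 0.16). Ddx11, a DNA helicase of sister chromatid cohesion with a further RefSeq copy, had the largest value of this group, 0.54 (SE 0.36), at 3.49 to 5.06 CPM after PRATA and 1.98 to 3.59 CPM after sham. Ddx28, Ddx59, Dhx32 and Dhx57 lay between -0.06 and 0.14.

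The other genes of each pathway were read beside the helicases. These lists were chosen with earlier results of these data known, so a likeness to the helicases is not an independent result. Over all genes tested, 48.0% were below 0 and 10.1% were lower at an unadjusted p under 0.05. Of 38 nucleolar partner genes tested (ribosome assembly and rRNA factors that are not members), all 38 had a log2 fold change below 0, and 31 were lower at an unadjusted p under 0.05, with a median of -0.82 that is near the -0.79 of the nucleolar helicases. Their sums were 2607, 2650 and 2707 CPM after PRATA and 5002, 3495 and 5546 CPM after sham, again with sham replicate 2 the lowest sham sample. Nol8, a nucleolar RNA-binding protein, was at 17.7, 13.5 and 15.3 CPM against 47.7, 42.3 and 63.6 CPM (log2 fold change -1.72, SE 0.21, adjusted p = 0.156 in edgeR). Npm1, the abundant nucleolar chaperone nucleophosmin, was at 177, 163 and 176 CPM against 359, 296 and 430 CPM (-1.07, SE 0.20). In both genes the groups were far apart.

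Splicing partners numbered 38, with 34 below 0 (48.0% of all genes) and a median of -0.33. Of the 38, 11 were lower at an unadjusted p under 0.05 (10.1% of all genes). Smn1 and Gemin5, which assemble the spliceosomal particles, had the smallest p-values of this list, with log2 fold changes of -1.03 (SE 0.20) and -0.63 (SE 0.16). Ddx20, the helicase of the same SMN complex, was at 14.8, 11.7 and 17.5 CPM after PRATA and 20.6, 16.4 and 13.0 CPM after sham, with overlap. Of 31 export and cytoplasmic partners, 25 were below 0 and 7 lower at that p, beside the same shares of all genes. Their median was -0.26, with Lsm14a, of mRNA storage granules, at -0.77 (SE 0.19) and Ncbp1, which binds the mRNA cap, at -0.68 (SE 0.19). RNA helicases without a Ddx or Dhx name, some of them DEAD box proteins, lay on both sides of 0: of 20 tested, 12 were below 0 and 8 above, with 3 lower and 2 higher at an unadjusted p under 0.05. Eif4a1, the DEAD box helicase of translation initiation that does not carry a Ddx name, was at 279, 304 and 299 CPM after PRATA and 539, 410 and 576 CPM after sham, without overlap (-0.79, SE 0.20, adjusted p = 0.168 in edgeR). Znfx1, an antiviral helicase, was higher in all PRATA samples, at 228, 209 and 138 CPM against 132, 116 and 114 CPM (0.67, SE 0.22, adjusted p = 0.194 in edgeR).

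**Figure D5:**
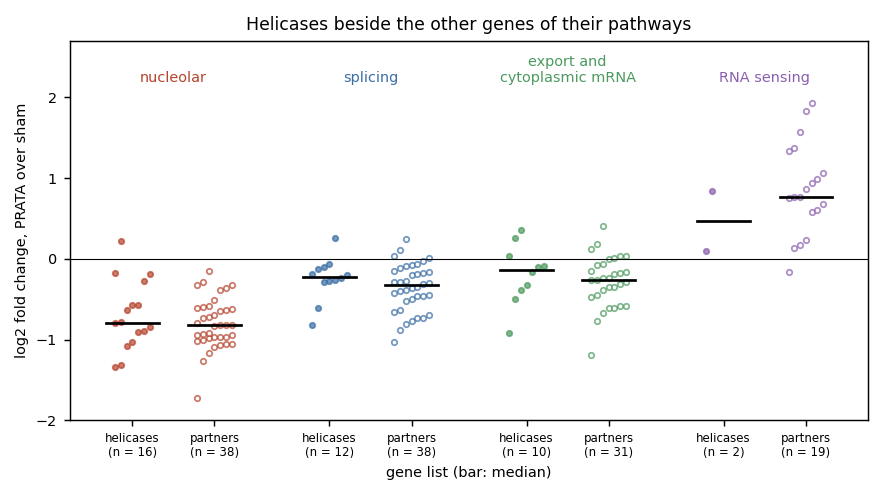
Log2 fold change (y axis, PRATA over sham) of the helicases (filled) and of the partner genes of the same pathway (open) for each role, with the number of genes tested and the median as a bar (x axis). Both nucleolar medians lie near -0.8, with -0.79 for the helicases and -0.82 for the partners, and both RNA sensing medians are above 0.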

How the data were processed

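The values are counts of reads per gene that the authors deposited without normalization, with no rows lacking a gene and 0 columns of values left unused. The submitters' processing notes name STAR 2.7.3a, RSEM and DESeq2 without a role, and the paper's methods name HISAT2, StringTie and Cuffdiff for FPKM. The counting tool, strand setting, genome build and annotation are not given in the sources used here. Copies of a gene may thus share reads.

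Counts were tested in R 4.3.3 with edgeR 4.0.16: filterByExpr (minimum count 10, minimum total 15), TMM scaling and the two-sided quasi-likelihood test of PRATA against sham over 14919 genes, without covariates and with Benjamini-Hochberg adjustment. CPM are TMM-scaled, and mean log2 CPM used a prior count of 1. Nothing says how cultures were split within a rat, so p-values measure the spread between these 3 samples per group. The thresholds were an unadjusted p under 0.05 and, for the stricter count, also an absolute log2 fold change over 1. Fits were tested on simulated data. Alternatives used limma 3.58.1 and DESeq2 1.42.0, and figures matplotlib 3.10.9.

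The helicases, their roles and the partner and marker lists, written from general knowledge, were chosen with earlier results of these data known. Genes named were all RNA sensors, the 6 members with the smallest p in each other role, members past both thresholds, paralog pairs, the 2 partners with the smallest p per list and all RNA sensing partners past both thresholds. Members and other genes outside this rule, Eif4a1 and Znfx1 among them, were named after their values were seen. Start site windows matched by symbol for 44 members with 1 window. The 2 members with 2 windows were left out, and 6 had none.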

Additional observations from a re-analysis of the deposited data

How the results depend on the processing

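Of 663 alternative values for the 39 members named by the rule or nucleolar, 614 kept their direction and their side of an unadjusted p of 0.05, 20 were weaker, 14 stronger and 15 reversed. In each alternative run, 15 of the 16 nucleolar helicases were below 0. Leaving out 1 sample at a time gave 11 to 19 helicases lower at that p (8 to 13 nucleolar and 3 to 6 others), 2 to 10 lower with a log2 fold change under -1 (10 without sham replicate 2, 7 without PRATA replicate 3, 2 without sham replicate 1), 0 to 1 higher (Dhx58 without PRATA replicate 3 and Dhx34, at 0.58, without sham replicate 2), and 0 to 1 higher with a log2 fold change over 1. It moved the nucleolar median between -0.94 and -0.57, the splicing median between -0.33 and -0.10, the export median between -0.23 and -0.14, the RNA sensing median between 0.18 and 0.84 and the gap between nucleolar and other helicases between -0.72 and -0.44. The RNA sensing partners higher at that p numbered 1 to 15 (4 without PRATA replicate 2, 5 without sham replicate 2, 6 without sham replicate 3) and the nucleolar partners lower 24 to 35. Limma-trend gave 2 helicases past both thresholds, and voom with sample quality weights gave 7, with 8 that are not nucleolar lower at an unadjusted p under 0.05 and 10 helicases at an adjusted p under 0.05 (7 nucleolar, 1173 genes in all). Without the filter 1 helicase was higher, Dhx58, and the median over all genes was -0.17. In the 4 samples without PRATA replicate 3 and sham replicate 1, 12 helicases were lower, Dhx58 was the 1 higher helicase, also past both thresholds (1.31), and 13 genes but 0 helicases had an adjusted p under 0.05. Reversed values were found where the difference was near 0: Ddx3y (-0.050 with library size alone, -0.0021 with DESeq2, -0.50 in the 4 samples, -0.31 to 0.63 with 1 sample left out), Ddx58 (-0.084 with voom, -0.18 to 0.46 with 1 left out), Ddx5 (0.13 in the 4 samples, -0.21 to 0.022 with 1 left out), Ddx3x (0.0089) and Dhx30 (-0.015) in the 4 samples. The causes were not tested. With the replicate block 12 helicases were lower, 9 of them nucleolar, the nucleolar median was -0.75, and 7 RNA sensing partners were higher. Same-numbered samples did not deviate together (r of -0.35, -0.04 and -0.35 for replicates 1, 2 and 3), which gave no sign of pairing. With 3 samples per group these values cannot exclude that the numbers pair the samples. The counts for nucleolar and other members and for partners under these settings were added after seeing the data. Depth limits Ddx3y, Ddx4, Ddx11 and Ddx43 most.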
